A study of Arabidopsis thaliana with 6 samples.

Results

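The genes of the chloroplast genome of Arabidopsis thaliana are the 133 rows, of 33602 in the deposited gene count table, whose locus name begins with ATCG. The plastid chromosome of 154478 bases carries a large inverted repeat, so 18 of the rows are second copies of a gene already listed. That leaves 115 distinct genes, counted by locus: 81 for proteins, 4 for ribosomal RNAs (rRNAs) and 30 for transfer RNAs (tRNAs). Their RNA was compared between 3 libraries of gemin2 mutant plants and 3 libraries of wild-type (WT) plants of the same ecotype, Col. All were whole plants of 9 days, raised on agarose medium at 22 °C in continuous light after cold stratification in the dark. The mutant is named gemin2-1 in the headers of the authors' comparison tables. The labels give no second allele and no rescued line, describe the source as pooled tissues without a number of plants, and do not say whether libraries came from separate cultures, so p-values rest on a spread between libraries that may be technical.

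GEMIN2 is a nuclear-encoded protein of the SMN complex, which assembles the snRNPs of the spliceosome, whereas chloroplasts have no spliceosome. Chloroplast genes are read by a bacterial-type RNA polymerase, whose core is itself encoded in the plastid and which needs nuclear-encoded sigma factors, and by a phage-type polymerase from the nucleus. Most are transcribed in operons and cut into smaller RNAs, their introns are self-splicing types helped by proteins, and a poly(A) tail on a plastid RNA marks it for decay. The libraries here were made from polyA-purified RNA, so the levels below are those of the plastid RNA that remained in such libraries, not of all plastid RNA.

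The 6 libraries held between 14049163 and 17217408 gene reads. GEMIN2 itself had 4.62, 4.45 and 4.55 CPM (read counts scaled to a common library size) in gemin2 libraries A, B and C, against 16.8, 15.5 and 15.8 CPM in WT libraries A, B and C. Among the WT libraries, WT A stood apart in its rRNA. Nuclear-encoded rRNA loci took 0.640%, 0.551% and 0.787% of the reads of gemin2 A, B and C, and 0.461%, 0.264% and 0.230% of the reads of WT A, B and C. WT A thus held 1.87 times the mean share of WT B and C, and gemin2 C 1.32 times that of gemin2 A and B. Several plastid genes were high in the same libraries, so values without WT A and gemin2 C, an alternative chosen after seeing the data, are given beside the results they touch.

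Low counts limited what could be tested. Of the 115 distinct plastid genes, 58 had enough reads for the test (58 to 134015 reads over all 6 libraries, median 210). The other 57 had at most 61 reads in all, with a median of 19, and 3 tRNA genes had 0. The rRNAs held 89.4% of plastid reads with each repeated gene counted once. Stretches of at least 50 bases with at least 98% identity to nuclear DNA were found in 14 of the 58. Among these, over the gene span with introns, were RBCL (7.99% of its bases), TRNI.2 (7.12%), PSAA (5.73%) and RPL2.1 (3.92%). In the mitochondrial genome, 18.1% of the 23S rRNA gene and 7.12% of TRNI.2 were alike. How reads of such stretches were counted is not given in the sources used here. A call below is an adjusted p under 0.05 in edgeR's quasi-likelihood test with Benjamini-Hochberg adjustment over all 20762 genes tested in the table, and a log2 fold change is gemin2 over WT.

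Of the 58 distinct plastid genes tested, 12 were higher in gemin2 and 0 lower. Over all genes tested, 36.7% were called, 17.8% higher and 18.9% lower, against 20.7% of the plastid genes higher. The share of plastid genes that rose was thus near the background, and 0 fell by edgeR or by DESeq2. At an unadjusted p under 0.05 in edgeR, 15 were higher and 0 lower. Every gemin2 library lay above every WT library in 11 plastid genes (19.0%, against 23.4% of all genes). Every gemin2 library lay below every WT library in 2 (3.45%, PSAJ and NDHA, against 24.7% of all genes). The median log2 fold change was 0.26 over the plastid genes and -0.001 over all genes, and 49 of the 58 were above 0, against 49.8% of all genes. As the plants were sampled whole, more or fewer chloroplast-rich cells and more or less plastid RNA per cell cannot be told apart. Counting both copies of repeated genes, 17 of 69 rows rose (24.6%), and 11 rows without WT B, a fit for which no share over all genes was taken. With DESeq2 8 rows rose (against 12.3% of all genes), from RRN4.5S.1, TRNI.2, CLPP1, RPL2.1 and PSBB. With the log2 share of nuclear rRNA reads as a covariate in edgeR, 0 rose (against 4.8% of all genes, and 2 distinct plastid genes at an unadjusted p under 0.05) and 5 rows fell (against 6.36% of all genes), from PSBA, PSBC, RBCL and both copies of the 16S rRNA. The overall direction turned too. With the covariate 19 of the 58 genes were above 0 and 39 below, with a median of -0.16 (against 50.3% of all genes above 0 and a median of 0.0024), and 30 of the 49 that had been above 0 were below it.

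**Figure D1:**
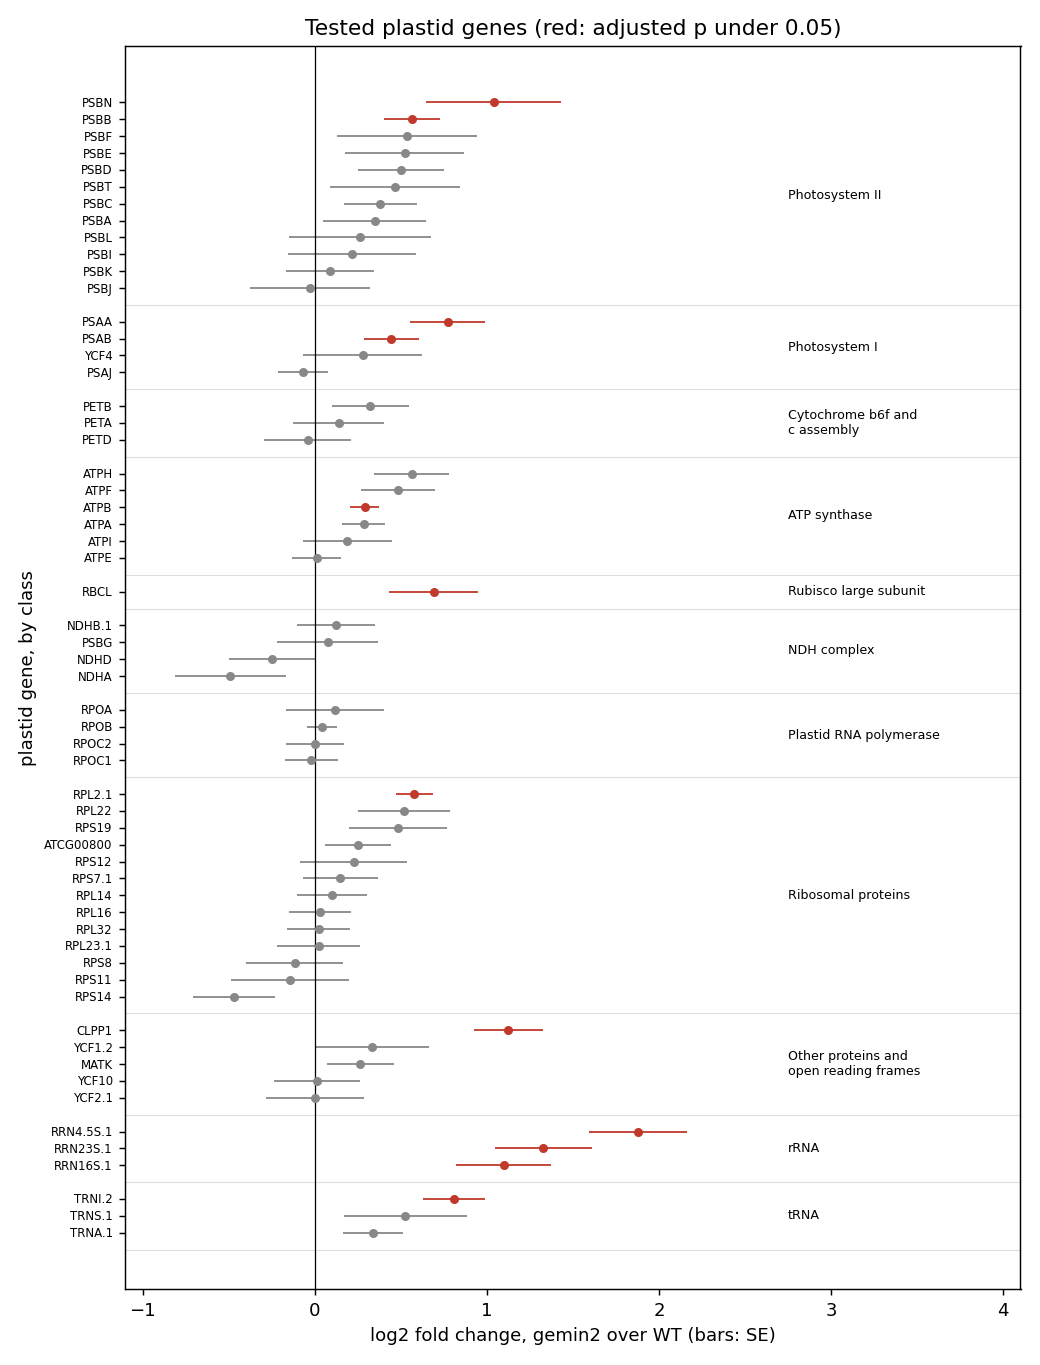
Log2 fold change, gemin2 over WT, of the 58 distinct plastid genes tested, by functional class, with bars for the SE from edgeR and red for an adjusted p under 0.05. RRN4.5S.1 and RRN23S.1 lie farthest to the right, at 1.88 and 1.33, CLPP1 is the highest protein-coding gene at 1.12, and the 4 RNA polymerase genes lie between -0.02 and 0.12.

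All 3 tested rRNAs of the plastid ribosome rose by edgeR, against 17.8% of all genes. The 4.5S and 23S rRNAs had the highest fold changes of the plastid genes. The gene of the 16S rRNA, the RNA of the small subunit (RRN16S.1, ATCG00920, 101012 to 102502, plus strand, TAIR10 plastid chromosome), had 878, 761 and 1258 CPM in gemin2 A, B and C and 764, 307 and 282 CPM in WT A, B and C, the order kept throughout. WT A lay within the range of the mutant libraries, far above the other WT libraries. The log2 fold change was 1.10 (SE 0.28, edgeR adjusted p = 0.00567), and 1.47 without WT A and gemin2 C. The 23S rRNA of the large subunit (RRN23S.1, ATCG00950, 104691 to 107500) had 1804, 1673 and 2564 CPM in gemin2, against 1373, 555 and 478 CPM in WT. Its genotypes did not overlap, with a log2 fold change of 1.33 (SE 0.28, edgeR adjusted p = 0.00171), and 1.75 without those libraries. With DESeq2 neither the 16S rRNA (adjusted p = 0.132) nor the 23S rRNA (adjusted p = 0.0599) passed.

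The 4.5S rRNA, a small RNA of the large subunit of land plant chloroplasts, rose most. It is cut from a joint precursor with the 23S rRNA, and in bacteria its sequence is the tail of the 23S rRNA itself. The deposited coordinates put RRN4.5S.1 (ATCG00960) at Pt:107599-107701 on the plus strand, after a spacer of 98 bases at Pt:107501-107598 that parts it from the 23S gene. Both are shown, from the TAIR10.1 plastid sequence of RefSeq, because the ratio of reads on the genes beside this spacer did not overlap between the genotypes.
spacer between RRN23S.1 and RRN4.5S.1: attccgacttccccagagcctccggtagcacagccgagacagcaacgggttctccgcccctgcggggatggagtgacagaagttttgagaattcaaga
RRN4.5S.1: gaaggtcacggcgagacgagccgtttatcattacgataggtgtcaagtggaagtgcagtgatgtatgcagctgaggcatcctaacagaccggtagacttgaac
No base of these lines is in capitals, since no motif was searched in them.

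RRN4.5S.1 had 6.57, 6.48 and 10.3 CPM in the gemin2 libraries, against 3.58, 1.78 and 1.00 CPM in the WT libraries. Every gemin2 library exceeded every WT library, with WT A the highest of the WT libraries. The log2 fold change was 1.88 (SE 0.29, edgeR adjusted p = 0.000123), and 2.19 without WT A and gemin2 C. Per 1000 reads of the 23S gene, the 4.5S gene had 3.64, 3.87 and 4.00 reads in gemin2, against 2.60, 3.20 and 2.09 in WT. The 23S gene had 2.05, 2.20 and 2.04 reads for each 16S read in gemin2, against 1.80, 1.81 and 1.69 in WT. Genotypes were apart in both ratios, each with an exact permutation p of 0.1, two-sided, the smallest that 3 against 3 libraries can give. Another ratio along the operon overlapped and had the lower mean in gemin2. Per 1000 reads of the 16S gene, the isoleucine tRNA gene TRNI.2 between the 16S and 23S genes had 4.89, 7.30 and 5.38 reads in gemin2, against 3.67, 10.4 and 12.4 in WT (exact permutation p = 0.4, two-sided). The 5S rRNA had 25 reads in all and was not tested.

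As a share of all gene reads, the plastid rRNAs came to 0.267%, 0.245% and 0.377% for gemin2 A, B and C, and to 0.217%, 0.0872% and 0.0759% for WT A, B and C (exact permutation p = 0.1, two-sided). Plastid rRNA relative to nuclear rRNA overlapped between the genotypes. That ratio was 0.417, 0.445 and 0.479 in gemin2, against 0.472, 0.331 and 0.330 in WT, and WT A lay among the mutant values (exact permutation p = 0.3, two-sided). With the nuclear rRNA share as covariate, the 16S rRNA was at -0.41, the 23S rRNA at -0.17 and the 4.5S rRNA at 0.35. That covariate itself differed between the genotypes, so with 6 libraries the genotype and the rRNA share cannot be told apart.

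**Figure D2:**
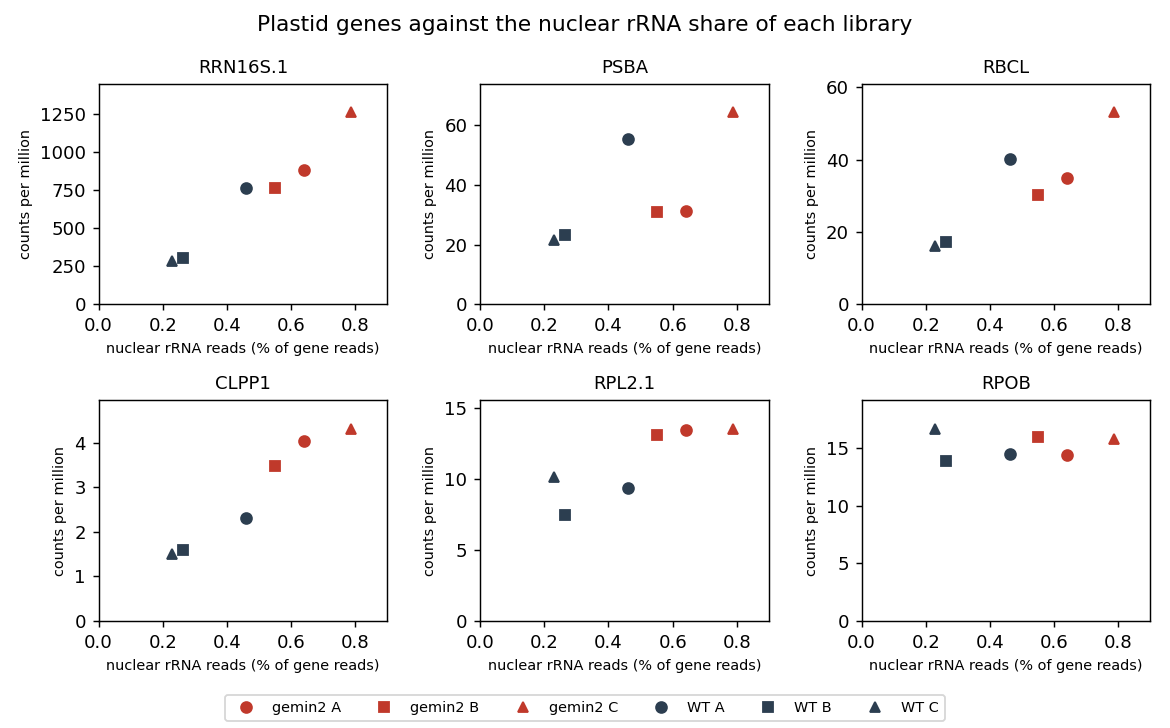
CPM of 6 plastid genes in each library against the share of gene reads on nuclear rRNA loci, in percent. RRN16S.1, PSBA and RBCL were high in gemin2 C and in WT A, which held the highest nuclear rRNA share of its genotype (0.461%), whereas RPL2.1 split by genotype and RPOB overlapped.

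Between the 16S and 23S genes lie 2 tRNA genes with long introns. TRNI.2 (ATCG00930), for an isoleucine tRNA, had 4.30, 5.55 and 6.76 CPM in gemin2, against 2.80, 3.20 and 3.50 CPM in WT. The genotypes were apart and WT A was the lowest library here, unlike for the rRNAs on both sides of it. The log2 fold change was 0.81 (SE 0.18, edgeR adjusted p = 0.00255), and 0.57 without WT A and gemin2 C. TRNA.1, for an alanine tRNA, was at 0.34 (adjusted p = 0.140, edgeR), with 3.97, 5.73 and 6.58 CPM in gemin2 and 4.14, 4.15 and 4.65 CPM in WT, which overlapped. Only 3 of 30 distinct tRNA genes could be tested, the other being the serine tRNA gene TRNS.1 at 0.53 (adjusted p = 0.271, edgeR).

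Of the 22 distinct ribosomal protein genes, which count the RPS12 loci ATCG00065 and ATCG00905 apart, 13 were tested and 1 rose. Over all genes tested, 17.8% rose. The median log2 fold change of the 13 ribosomal protein genes was 0.10. RPL2.1 (ATCG00830, 84337 to 85843, minus strand), a protein of the large subunit that in bacteria lies near the peptidyl transferase centre, had 13.5, 13.1 and 13.5 CPM in the gemin2 libraries, against 9.39, 7.47 and 10.1 CPM in the WT libraries. The mutant libraries were close together and all above WT. RPL2.1 thus had a log2 fold change of 0.58 (SE 0.11, edgeR adjusted p = 0.000561), and 0.61 without WT A and gemin2 C. RPL23.1, which precedes it in the same operon, was at 0.02. The lowest ribosomal protein gene was RPS14 at -0.47 (adjusted p = 0.138, edgeR), with 1.24, 2.31 and 2.40 CPM in gemin2 and 3.15, 2.79 and 2.36 CPM in WT, where gemin2 C and WT C were nearly equal. RPL32 and RPL16 were at 0.02 and 0.03.

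The 4 genes of the plastid-encoded RNA polymerase core were all tested and none was called, nor had one an unadjusted p under 0.05 in edgeR. RPOB, its beta subunit, had 14.4, 15.96 and 15.8 CPM in gemin2, against 14.5, 13.9 and 16.7 CPM in WT, so the genotypes overlapped. Its log2 fold change was 0.04 (SE 0.09, edgeR adjusted p = 0.738). RPOC1 was at -0.02, RPOC2 at 0.00 and RPOA at 0.12, with SEs up to 0.28.

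CLPP1 (ATCG00670, 69910 to 71882, minus strand), a catalytic subunit of the Clp protease of the chloroplast stroma, rose most among the protein-coding genes. It had 4.04, 3.47 and 4.30 CPM in the gemin2 libraries, against 2.31, 1.60 and 1.501 CPM in the WT libraries. The genotypes did not overlap. CLPP1 had a log2 fold change of 1.12 (SE 0.20, edgeR adjusted p = 0.000506), and 1.26 without WT A and gemin2 C. As a share of plastid protein-coding reads, CLPP1 held 1.65%, 1.45% and 1.33% in gemin2, against 0.847%, 0.863% and 0.823% in WT (exact permutation p = 0.1, two-sided). On that scale WT A lay with the other WT libraries. The other tested genes of its class, MATK (an intron maturase), YCF1.2, YCF10 and YCF2.1, lay between 0.00 and 0.33 and were not called.

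Of the 52 protein-coding genes tested, 8 (15.4%) rose, against 17.8% of all genes. The 52 had a median log2 fold change of 0.22 and a range of -0.49 to 1.12. Together the protein-coding genes, each counted once, held 0.0242%, 0.0240% and 0.0319% of gene reads in gemin2 A, B and C. In WT A, B and C they held 0.0277%, 0.0187% and 0.0182%, so WT A was above gemin2 A and B (exact permutation p = 0.3, two-sided). PSBA and RBCL made up 27.2%, 25.6% and 36.2% of these reads in gemin2, against 35.0%, 22.0% and 20.6% in WT. The pair took the largest shares in gemin2 C and WT A.

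**Figure D3:**
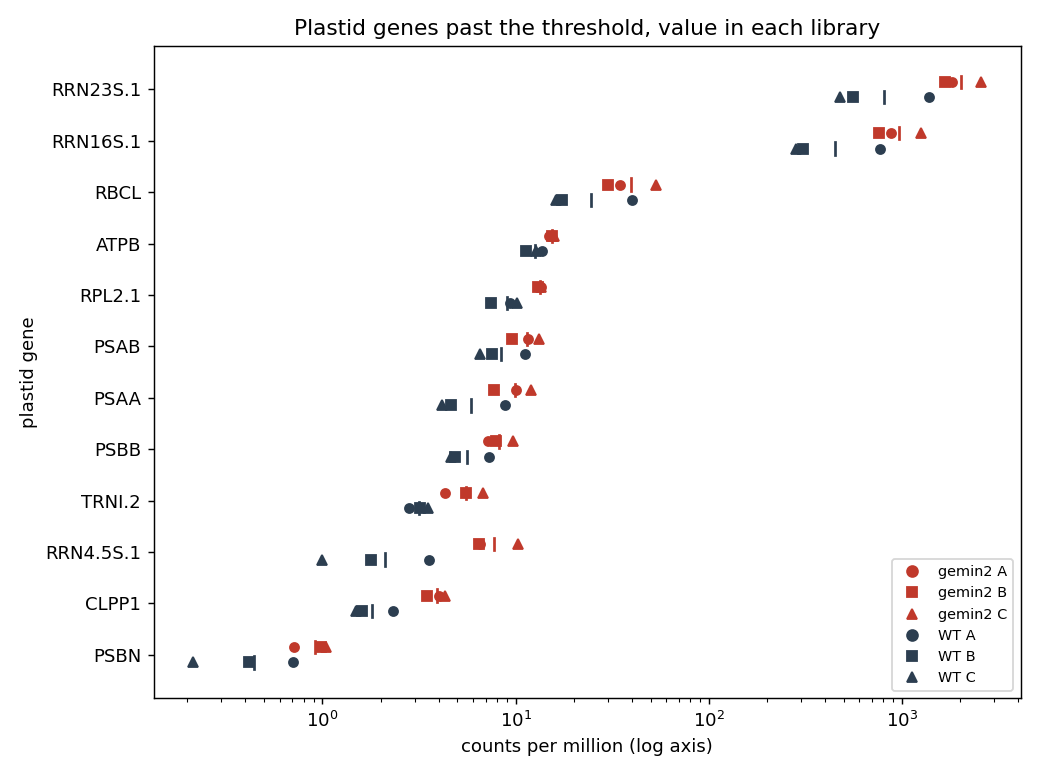
CPM on a log axis in each library of the 12 distinct plastid genes called higher, gemin2 libraries in red above the WT libraries in dark blue, with a vertical bar for each genotype's mean. WT A (circle) lies beside the mutant libraries for RRN16S.1, RBCL, PSAA, PSAB and PSBB, and with the other WT libraries for ATPB and RPL2.1.

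RBCL (ATCG00490, 54958 to 56397, plus strand), the large subunit of the carbon-fixing enzyme Rubisco, had 34.9, 30.2 and 53.0 CPM in the gemin2 libraries, against 40.2, 17.4 and 16.2 CPM in the WT libraries. WT A was above gemin2 A and B, so the genotypes overlapped. For RBCL the log2 fold change was 0.69 (SE 0.26, edgeR adjusted p = 0.0463). It was 0.95 without WT A and gemin2 C, and lost its call without WT B (adjusted p = 0.198), WT C (0.204) or gemin2 C (0.220) and with DESeq2 (0.333). With the nuclear rRNA share as covariate it was -0.80 (adjusted p = 0.000956).

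In photosystem II, 2 of 12 tested genes rose (against 17.8% of all genes), with a median log2 fold change of 0.42. PSBB (ATCG00680, 72371 to 73897, plus strand), the core antenna protein CP47, had 7.16, 7.92 and 9.65 CPM in gemin2, against 7.29, 4.86 and 4.65 CPM in WT. WT A lay just above gemin2 A. PSBB had a log2 fold change of 0.57 (SE 0.16, edgeR adjusted p = 0.0135), and the call was lost without WT B, WT C or gemin2 C (adjusted p of 0.0690, 0.0669 and 0.0639, edgeR). Without WT A and gemin2 C together it was 0.67. PSBN (ATCG00700, 74249 to 74380, minus strand), a small protein that in tobacco is needed for photosystem II assembly, had only 65 reads in all. Its levels were 0.716, 0.983 and 1.05 CPM in gemin2, against 0.701, 0.415 and 0.214 CPM in WT, and gemin2 A and WT A were nearly equal. The log2 fold change was 1.04 (SE 0.39, edgeR adjusted p = 0.0496), a call that was lost in 4 of the 6 fits that left out a library. It was also lost with DESeq2 (adjusted p = 0.177), with no filter on low counts (0.0643) and without WT A and gemin2 C (1.38, edgeR adjusted p = 0.0569). PSBN lies on the opposite strand between PSBT and PSBH of the PSBB operon. Since no step that keeps the strand is named for these libraries, its reads cannot be told apart from reads of that operon's RNA.

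PSBA (ATCG00020) encodes the D1 reaction centre protein of photosystem II that is replaced constantly in the light. By mean, it had the highest level per length among the protein-coding genes. It had 39.7 ± 17.9 CPM per kilobase in gemin2 and 31.5 ± 18.0 CPM per kilobase in WT (SD, n = 3 each), followed in WT by PSAJ, RPL32 and RBCL. That order did not hold in every library. PSAJ was above PSBA in gemin2 B (29.6 against 29.2 CPM per kilobase), WT B (30.7 against 22.0) and WT C (29.6 against 20.2). In gemin2 A, gemin2 C and WT A it was below PSBA. Without the length, PSBA had 31.4, 31.1 and 64.2 CPM in the gemin2 libraries, against 55.4, 23.4 and 21.4 CPM in the WT libraries. One library of each genotype was high. The log2 fold change was 0.35 (SE 0.30, edgeR adjusted p = 0.395). Without WT A and gemin2 C it was 0.47 (edgeR adjusted p = 0.000479). Those libraries were left out after their high values were seen, which lowers the spread, so that p is no independent test. With the nuclear rRNA share as covariate the log2 fold change was -1.32 (edgeR adjusted p = 0.000688), so the direction of PSBA turned with the setting. Its promoter resembles those of bacteria and is shown from its upstream element, in capitals, at Pt:1530-1559 on the minus strand, starting at position -115 from the start codon.
PSBA promoter stretch: TTGACAtggctatataagtcatgttatact
TTGACA was found in the 150 bases before the start in 10 of 113 plastid genes on the gene's strand (8.85%), or 12 (10.6%) on either strand. TATAAT, the element nearer the start in bacterial promoters, was in 19 (16.8%) or 29 (25.7%).

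In photosystem I, 2 of 4 tested genes rose (against 17.8% of all genes), the reaction centre subunits encoded side by side on the minus strand. PSAA (ATCG00350, 39605 to 41857) had 10.02, 7.75 and 12.0 CPM in gemin2, against 8.76, 4.62 and 4.15 CPM in WT. WT A lay above gemin2 B. In PSAA, gemin2 exceeded WT by 0.77 on the log2 scale (SE 0.22, edgeR adjusted p = 0.0115), and 1.00 without WT A and gemin2 C. PSAB (ATCG00340, 37375 to 39579) had 11.7, 9.54 and 13.2 CPM in gemin2, against 11.1, 7.53 and 6.57 CPM in WT, and overlapped likewise. Its log2 fold change was 0.44 (SE 0.16, edgeR adjusted p = 0.0407), and 0.57 without those libraries. Both calls were lost without WT B, WT C or gemin2 C and with DESeq2 (adjusted p of 0.131 for PSAA and 0.0533 for PSAB), and that of PSAB also without gemin2 A (adjusted p = 0.0784, edgeR). The small subunit PSAJ, transcribed apart from them, was at -0.07 with 3.64, 3.99 and 4.00 CPM in gemin2 and 4.07, 4.15 and 4.00 CPM in WT.

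All 6 plastid genes of the ATP synthase were tested and all were above 0, with a median log2 fold change of 0.29. Of these 1 rose, against 17.8% of all genes. ATPB (ATCG00480, 52660 to 54156, minus strand), the catalytic beta subunit, had 14.9, 15.4 and 15.7 CPM in gemin2, against 13.7, 11.4 and 12.7 CPM in WT. The genotypes were apart by a narrow gap. The log2 fold change was 0.29 (SE 0.09, edgeR adjusted p = 0.0145), and the call was lost without WT B (adjusted p = 0.0855) and with DESeq2 (0.0819). Without WT A and gemin2 C it was 0.34. ATPE, the epsilon subunit whose reading frame overlaps the end of ATPB, was at 0.01 with 4.69, 4.45 and 4.30 CPM in gemin2 and 4.49, 4.80 and 4.00 CPM in WT. ATPH, the membrane ring subunit, was at 0.56 (edgeR adjusted p = 0.0551) with every mutant library above WT.

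No gene of the cytochrome b6f complex or of the NDH complex, which feeds electrons back into the chain around photosystem I, was called, and none had an unadjusted p under 0.05 in edgeR. PETB, cytochrome b6, was at 0.32 (edgeR adjusted p = 0.282), with 2.67, 2.14 and 3.26 CPM in gemin2 and 2.17, 2.55 and 1.64 CPM in WT, which overlapped. PETD, subunit IV of the same complex, was at -0.04. In the NDH complex only 4 of 11 distinct genes had enough reads, with a median of -0.09. NDHB.1 was at 0.12, and NDHA had 0.521, 0.636 and 0.676 CPM in gemin2, against 1.05, 0.830 and 0.715 CPM in WT. NDHA was the lowest plastid gene at -0.49 (SE 0.32, edgeR adjusted p = 0.263).

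Within the WT genotype, the classes differed in how far WT A stood from WT B and C. WT A was 2.57 to 2.66 times the mean of WT B and C in the 3 tested rRNAs, 2.48 times in PSBA, 2.39 times in RBCL and 2.00 times in PSAA. The median was 1.61 in photosystem II genes and 1.51 in photosystem I genes. It was 1.12 in ATP synthase genes and 1.07 in ribosomal protein genes, and 0.999 over all genes tested that had reads in every library. RPL2.1 was at 1.07, CLPP1 at 1.49 and RPOB at 0.95. Of the 6 photosynthesis genes that rose in gemin2, RBCL, PSBN (2.23), PSAA, PSAB (1.58) and PSBB (1.53) were high in WT A, and ATPB was near the other WT libraries (1.14).

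Reads of genes that share an operon were set against each other. For each PSAB read, PSAA had 0.860, 0.812 and 0.916 reads in gemin2 libraries A, B and C, against 0.786, 0.614 and 0.630 in the WT libraries. Downstream in the same operon, PSAB had 9.42, 4.13 and 5.49 reads for each RPS14 read in gemin2, against 3.53, 2.70 and 2.79 in WT. PSBB had 5.24, 4.42 and 6.04 reads for each read of PETD, the last gene of its operon, in gemin2, against 3.47, 3.04 and 3.82 in WT. In each of these pairs the gene nearer the promoter was relatively higher in every mutant library.

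ATPB had 3.18, 3.47 and 3.66 reads for each ATPE read in gemin2, against 3.06, 2.37 and 3.18 in WT, where gemin2 A and WT C were nearly equal. RPL2.1 had 7.67, 7.79 and 11 reads for each read of RPL23.1 in gemin2, against 6.70, 4.85 and 6.17 in WT. RPL23.1 lies upstream of RPL2.1, so the order was the reverse of the other pairs. Each of these 5 ratios was apart between the genotypes, at the smallest exact permutation p possible, 0.1, two-sided. PSBB over PETB (exact permutation p = 0.5) and RPOB over RPOC2 (exact permutation p = 0.9) overlapped. The pairs were chosen with the fold changes in view, so their ratios are a description. For single genes, every gemin2 library lay above every WT library in 23.4% of all genes tested and below in 24.7%.

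**Figure D4:**
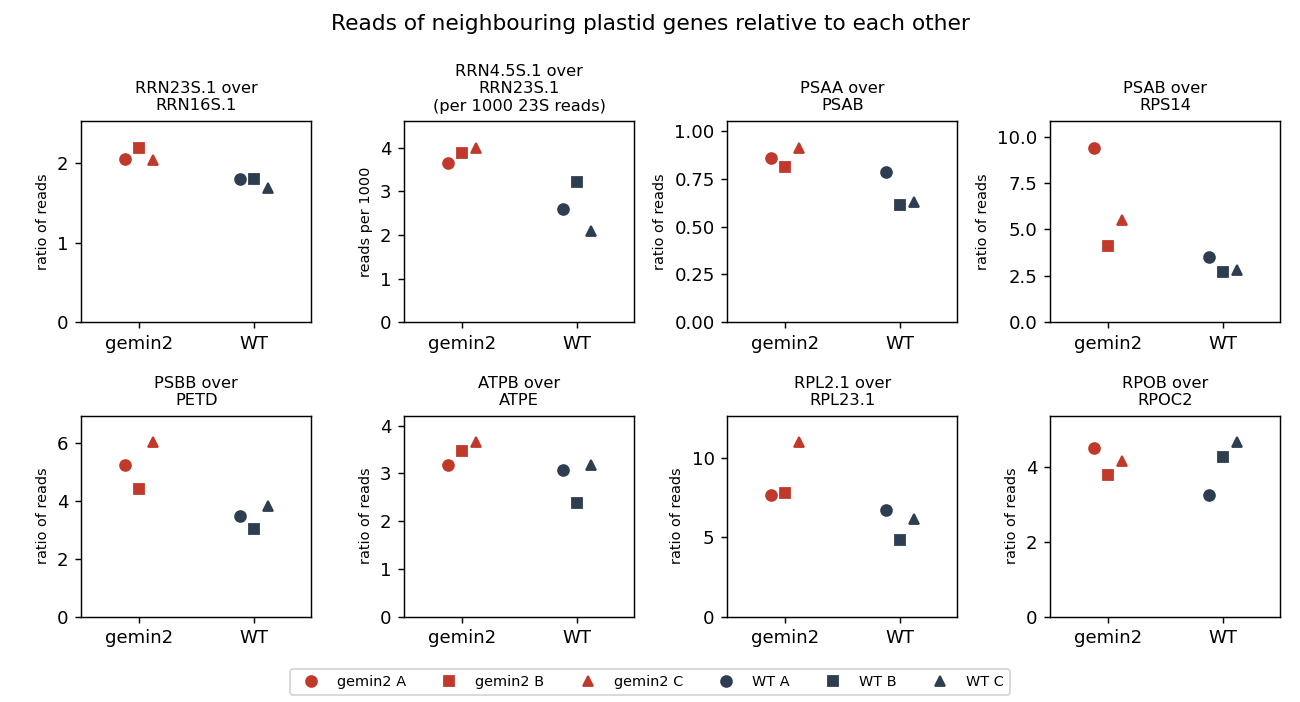
Reads of a plastid gene relative to a neighbour in the same transcription unit, per library, gemin2 left of WT. The genotypes do not overlap in 7 of the ratios shown, and overlap for RPOB over RPOC2. They also overlap for PSBB over PETB and TRNI.2 over RRN16S.1, which are not shown. The pairs were chosen with the fold changes in view.

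In the authors' deposited table of differential genes, 12 rows of 8 distinct plastid genes were listed, all higher in the mutant. No share over all genes was taken from it, nor over all introns from the intron table below, so these counts have no background here. In the authors' deposited table RRN4.5S.1 was at 1.87, RRN23S.1 at 1.33, CLPP1 at 1.12, RRN16S.1 at 1.10, PSBN at 1.04, TRNI.2 at 0.81, PSAA at 0.77 and RBCL at 0.68. RPL2.1, ATPB, PSAB and PSBB were called here and are not among those listed. They were at 0.58, 0.29, 0.44 and 0.57 here, below the lowest listed value, 0.68 for RBCL. Whether the authors' list also rests on a fold change threshold was not tested, so the listed genes and the calls here may differ by threshold. The authors' deposited intron table listed 2 plastid introns, both group II introns and both higher in the mutant. Their ends are shown, because that table lists them, from the TAIR10.1 plastid sequence of RefSeq. They are on the gene's strand, with 6 exon bases in capitals and 24 intron bases in lower case. Whether other plastid introns changed was not tested here.
PETB intron 5 prime end: ATGAGTgtgtgacttgttagaattgaccct
PETB intron 3 prime end: taaccttggtttacctatctcaatAAAGTT
RPL16 intron 5 prime end: CTTAGTgtgtgactcgttggtttaggatta
RPL16 intron 3 prime end: taatttagaaccatcaactataacCCAAAA
Both introns open with GTGTG after exon bases that end in AGT.

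The PETB intron (74847 to 75650, 804 bases) had a log fold change of 1.28 and an FDR of 0.00388 in the authors' deposited table. There its read density over that of the gene was 0.583 in gemin2 and 0.298 in WT, a log2 ratio of 0.97. The RPL16 intron (81588 to 82643, 1056 bases) had a log fold change of 0.82 and an FDR of 0.0433 in the authors' deposited table, and a density relative to the gene of 0.397 in gemin2 and 0.229 in WT. The genes themselves were not called here, PETB at 0.32 and RPL16 at 0.03. In gemin2, density times length gave 46.9 for the RPL16 intron and 45.6 for its gene in the authors' deposited table, so the gene values cannot hold all intron reads. No value per library is used for these introns.

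Nuclear genes for plastid transcription were set beside the plastid genes. Of 20 such genes, 11 rose, 1 fell and 8 did not pass, against 17.8% and 18.9% of all genes. Without WT A, WT B, gemin2 B or gemin2 C, 7 rose. The proteins that sit on the plastid-encoded polymerase made up most of it, with 9 of 12 higher. PTAC10 had 116 ± 4.18 CPM in gemin2 and 75.2 ± 4.80 CPM in WT (SD, n = 3 each), a log2 fold change of 0.63 (edgeR adjusted p = 5.02e-07), and PTAC3 was at 0.54. The phage-type polymerase of plastids, PDE319 (also known as RPOTP or SCA3), rose by 0.48 (SE 0.05, edgeR adjusted p = 2.16e-06). Of the 6 sigma factors, SIGB rose by 0.14, SIG5, a light- and stress-induced one, was at -0.46 (edgeR adjusted p = 0.000355), and 4 were not called. PTAC14, at 0.14, lost its call with DESeq2 (adjusted p = 0.118).

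**Figure D5:**
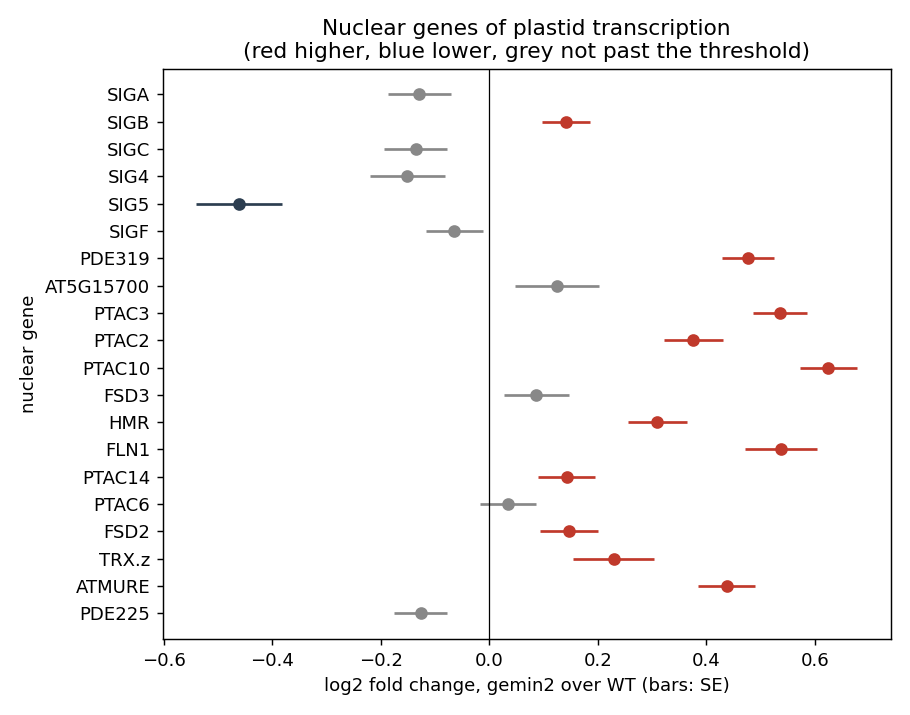
Log2 fold change, gemin2 over WT, of 20 nuclear genes for plastid transcription, with bars for the SE from edgeR. Polymerase-associated proteins such as PTAC10 (0.63) lie to the right, and SIG5 (-0.46) farthest to the left.

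Of 6 nuclear genes for plastid RNA decay and processing, 2 rose and 2 fell, against 17.8% and 18.9% of all genes. EMB2730, the exoribonuclease RNR1 that trims plastid rRNA, rose by 0.42 (edgeR adjusted p = 2.74e-05) and the endonuclease RNEE/G by 0.17, a call lost with DESeq2 (adjusted p = 0.0900). The endonuclease-like RNA-binding proteins CSP41A and CSP41B fell, by 0.31 and 0.44 on the log2 scale. Of 6 root markers, which stand for tissue with few green plastids, 2 rose and 3 fell, against the same shares of all genes, with a median of -0.35. The endodermis regulator SCR was at 0.21 and the phosphate exporter PHO1 at 0.24. The iron transporter IRT1 had 205 ± 19.5 CPM in gemin2 and 328 ± 13.7 CPM in WT (SD, n = 3 each), and the root hair regulator RHD6 fell by 1.07 on the log2 scale. The 6 markers summed to 332 to 384 CPM in gemin2 libraries and 441 to 479 CPM in WT libraries, with none at 0 reads. IRT1 was the largest part of that sum in every library, so the sum follows IRT1, whereas SCR and PHO1 were higher in gemin2. The part of tissue composition in the plastid values was not tested. Of 11 tested rows of the mitochondrial genome, 5 rose, against 17.8% of all genes. Mitochondrial rows held 0.0218% ± 0.00205 of gene reads in gemin2 and 0.0103% ± 0.00300 in WT (SD, n = 3 each), and the genotypes were apart (exact permutation p = 0.1, two-sided).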

How the data were processed

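PolyA-selected RNA of whole plants was sequenced in 3 gemin2 and 3 WT libraries, grouped by genotype alone. The values are raw counts of reads on each gene, deposited without normalisation. Build TAIR10, edgeR 3.4.2 under R 3.0.2, and TopHat2 2.0.9 are named per the submitters' processing notes. The counter, and how multi-mapped reads were treated, was not given in the sources used here. The authors' deposited comparison tables hold log2 fold changes, false discovery rates (adjusted p-values), read density as a signal, and ratios of intron to gene density, per the file headers. Library letters (A to C) are those of the deposited columns, with no tie to a replicate number in the labels, and 0 sample columns were left out.

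Across the whole table, edgeR 4.0.16 was run under R 4.3.3 (filterByExpr with a minimum count of 10, TMM, quasi-likelihood F test, Benjamini-Hochberg adjustment, threshold 0.05, two-sided), after a check on simulated counts. The SE is the size of the log2 fold change over the square root of F. CPM are scaled to TMM library sizes. The alternatives were DESeq2 1.42.0, other size factors, no filter on low counts, library sizes from nuclear loci, the nuclear rRNA share as covariate and leaving out libraries. Shares and read ratios were compared with exact permutation tests (scipy 1.17.1). The 133 rows matched RefSeq's TAIR10.1 annotation at both ends for 125, at one end for 5 and at neither for 3. Like bases elsewhere in the genome were found with BLAST 2.17.0+. Copies in the inverted repeat had identical reads in 16 of 18 pairs and differed by at most 11 reads in the others, so each gene was counted once.

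Named plastid genes are PSBA, RBCL, all that passed the threshold and, in each class, the member with the most reads and those highest and lowest by log2 fold change over SE. From each nuclear list the pair highest and the pair lowest by that measure among those past the threshold were named. Other genes, the gene pairs and PDE319 and SIGB were named after their values were seen. The members, classes and lists were chosen with earlier results of these data known.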

Additional observations from a re-analysis of the deposited data

How the results depend on the processing

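With other size factors, no low-count filter or library sizes from nuclear loci, 17 plastid rows rose and 0 fell, as in the test reported. With DESeq2 8 rose, and with the nuclear rRNA share as covariate 0 rose and 5 fell. Leaving out each library in turn gave 11 to 20 rows higher and 0 lower, fits for which no share over all genes was taken. Leaving out WT A and gemin2 C, chosen after seeing the data, gave 19 higher and 0 lower. In that fit 14.1% of all genes were higher and 15.1% lower. No paired analysis was possible because the columns carry letters that no label ties to replicate numbers. The share of gene reads on plastid protein-coding genes, both copies counted, was higher in gemin2 by 0.00563 percentage points, and by 0.00305 to 0.00878 without 1 library. Of the nuclear lists, plastid transcription had 7 higher and 2 lower with the covariate, against 4.8% and 6.36% of all genes. Without WT A and gemin2 C it had 7 higher and 3 lower, against 14.1% and 15.1% of all genes. Without 1 library it had 7 to 10 higher and 1 to 2 lower. Plastid RNA decay and processing had 1 higher with DESeq2, with the covariate and without WT A and gemin2 C, and 1 to 2 without 1 library. Root markers had 0 higher and 1 lower with the covariate, and 1 to 2 higher without 1 library.

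The covariate turned 30 of the 49 plastid genes above 0 to below it. Among the genes chosen by the naming rule it turned the log2 fold change of PSBA to -1.32, RBCL to -0.80, YCF2.1 to -0.71, NDHB.1 to -0.61, TRNS.1 to -0.49, RRN16S.1 and PSAA each to -0.41, PSAB to -0.38, RRN23S.1 to -0.17, PSBB to -0.14, PETB to -0.10 and ATPE to -0.024. The cause was not tested. YCF2.1, near 0, was at -0.0062 with DESeq2 and -0.00030 with no filter. Without WT A and gemin2 C, RPOC1 was at 0.12 and PETD at 0.16. Without 1 library, PSBA ranged from -0.087 (without gemin2 C) to 0.91 (without WT A), PSBJ from -0.18 to 0.22, YCF2.1 from -0.25 to 0.26, ATPE from -0.055 to 0.076, RPOB from -0.016 to 0.12, RPOC1 from -0.12 to 0.11 and PETD from -0.21 to 0.16.

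Depth limits the plastid results. Of 115 distinct genes 57 were too low to test, and PSBN and NDHA rest on 65 and 69 reads. Reads were not reported with molecular identifiers, so read counts carry PCR copies.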

Other observations

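Base composition of the tested plastid protein-coding genes, over the whole gene span with introns, was looked at beside their fold changes. The 8 that rose had a median GC content of 42.0% (33.5% to 44.7%), and the other 44 a median of 36.8% (28.7% to 45.1%). The longest run of A on the coding strand had a median of 5.5 bases (3 to 13) in the genes that rose and 6 bases (2 to 14) in the others. Over these 52 genes, Spearman's rho of the longest A run was -0.41 with the WT level in CPM per kilobase and -0.20 with the log2 fold change. For GC content it was 0.24 and 0.31. The part of gene length, which divides the level, was not tested. These values are a description across genes that share libraries and are not independent replicates.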
